A study of Mus musculus with 18 samples.

Results

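Neo2/Neo2 mouse embryos were compared with WT and Neo2/+ embryos, which gave a like Tbx1 signal on the same arrays although they carry different Tbx1 alleles. The comparison holds 6 of the 18 arrays of the series: 2 arrays of Neo2/Neo2, 2 of Neo2/+ and 2 of WT. The 6 arrays were chosen by genotype label and by their Tbx1 signal, so that differences could be described that do not go with the Tbx1 transcript. Each array held RNA of 1 whole embryo collected at E9.5, and the values are log2 probe set signals made by the authors with RMA. The strain background was mixed, 129SvEv with C57Bl/6, in every embryo. Neo2/Neo2 embryos carry the Neo2 allele of Tbx1 on both chromosomes and no wild-type allele, Neo2/+ embryos carry 1 Neo2 and 1 wild-type allele, and WT embryos are Tbx1+/+. Neo2 is an engineered allele reported elsewhere, known as hypomorphic, and it is present throughout the embryo rather than in 1 cell type. The labels give the same collection day for all embryos, and no somite number, litter or array batch was given in the sources used here.

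Tbx1 encodes a T-box transcription factor that acts in the pharyngeal endoderm and mesoderm, the second heart field and the otic vesicle, and it is a main gene of DiGeorge syndrome. At this age the mouse embryo changes quickly. The tailbud still adds tissue at the posterior end under Wnt, FGF and Cdx factors, RNA-binding proteins of the Lin28 axis are declining, and the first neurons leave the cell cycle under proneural basic helix-loop-helix factors.

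Tbx1 itself had log2 signals of 6.62 and 6.62 in the Neo2/Neo2 embryos, against 6.59 and 6.50 in Neo2/+ and 6.54 and 6.63 in WT. The means were 6.62 ± 0.0039 in Neo2/Neo2, 6.54 ± 0.0653 in Neo2/+ and 6.59 ± 0.0641 in WT (SD, n = 2 each). These values chose the arrays, so they are given as a description with no test. The nearest genotypes left out were +/-, with 6.61 and 6.13, and Neo/+, with 6.35 and 6.24. The +/- embryo at 6.61 lay within the range of the compared embryos, so a like signal need not mean a like Tbx1 dose. The other genotypes had Tbx1 means between 5.07 in -/- and 5.71 in Neo2/-.

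**Figure D1:**
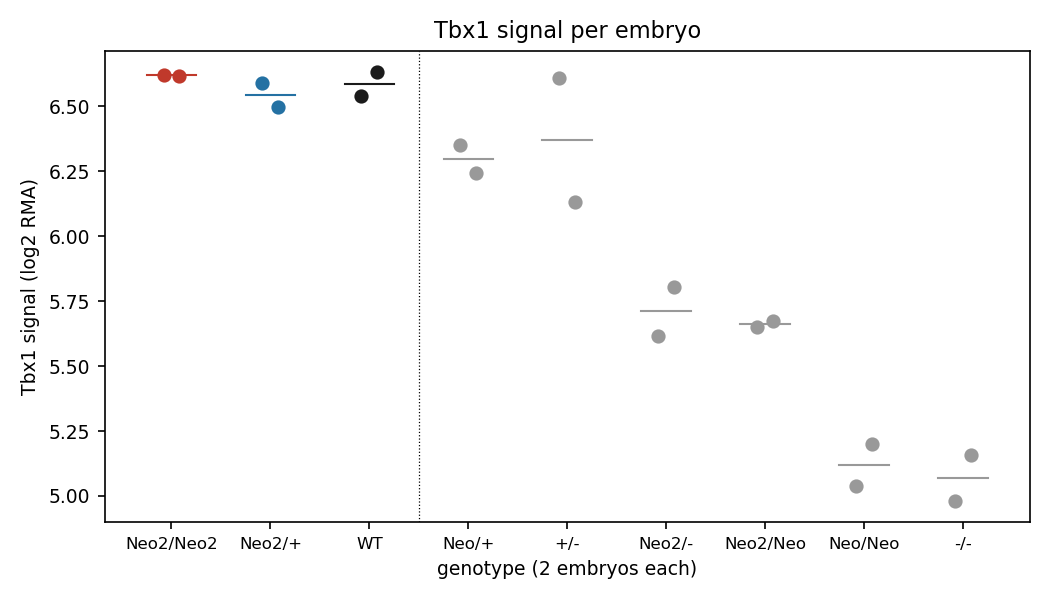
Tbx1 signal (log2 RMA, vertical axis) of each of the 18 embryos, by genotype (horizontal axis). Points are embryos and short bars are genotype means; the 3 genotypes left of the dotted line are the ones compared, and their 6 embryos lie between 6.50 and 6.63.

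The arrays of the series had median log2 signals of 5.73 to 5.94, and precision is limited by there being few arrays. Replicate 1 of +/- and replicate 1 of -/- stood apart, with median correlations to the other arrays of 0.975 and 0.985. Differences were therefore tested in a limma fit on the 14 arrays of the 7 other genotypes. The spread in that fit leaves out how embryos differ within +/- and within -/-. The 2 Neo2/Neo2 arrays correlated at 0.996 with each other over all probe sets. Xist, the RNA that silences 1 X chromosome in females, had log2 signals of 5.31 and 5.35 in the Neo2/Neo2 embryos, 11.72 and 4.71 in Neo2/+ and 12.15 and 11.85 in WT. Eif2s3y, a Y-linked translation factor gene, had 8.31 and 8.56 in Neo2/Neo2, 3.03 and 8.44 in Neo2/+ and 2.88 and 2.88 in WT. By these genes both Neo2/Neo2 embryos and replicate 2 of Neo2/+ were male and the other 3 embryos female, so sex moves with genotype in this comparison.

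Between Neo2/Neo2 and the mean of Neo2/+ and WT, 2119 of 45037 probe sets differed at a Benjamini-Hochberg adjusted p under 0.05 in limma, which is 4.71%. Of these, 827 were higher in Neo2/Neo2 and 1292 lower. Taking the brightest probe set of each gene, 699 of 18193 genes were called (3.84%), with 473 higher (2.6% of genes) and 226 lower (1.24%). So called probe sets were mostly lower and called genes mostly higher. Of the called probe sets, 680 have no single gene symbol and 740 are not the brightest of their gene. The gene counts leave these out, and with them 503 genes called at dimmer probe sets only. Most of the higher genes differed little, 311 of the 473 by less than 0.5 on the log2 scale. Of the 226 lower genes, 72 differed by less than 0.5 and 117 by 0.5 to 1. Differences of more than 1.5 were found for 5 higher and 7 lower genes. With each array centred on its median, 3332 probe sets were called and 65.6% of them were higher, against 39% in the values as deposited, and the median difference of all genes moved to 0.114 from 0.049.

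These counts rest on single embryos and on how the spread is estimated. In the fit on all 18 arrays 16 probe sets were called (0.0355%), and with the Xist signal as a covariate 44 were called (0.0977%). Leaving out Neo2/Neo2 replicate 2 left 6 calls and leaving out Neo2/Neo2 replicate 1 left 1330. Without Neo2/+ replicate 2, the male embryo of that genotype, 364 were called, without Neo2/+ replicate 1 it was 830, without WT replicate 1 it was 745, and without WT replicate 2 it was 2072. Signs in the fit on all 18 arrays could not change, as its genotype means are the same. The fits that leave out 1 embryo reuse the arrays that gave the calls. Kept signs therefore add no support: all 2119 probe sets kept their sign in each of these fits. No gene was called in every one of them, and 15 genes were called with the Xist covariate and in at least 5 of the 6 fits that leave out 1 embryo. Higher in Neo2/Neo2 among these were Cdx4, Nkx1-2, Cdx2, Hoxb1, Hoxd1, Fgf17, Fgf18, Arhgap24, Ablim1 and Morc4. Lower were Lhx8, Aldh1a1, Gpc2, Malat1 and Fat4. Each of the 15 lost its call without Neo2/Neo2 replicate 2, so they too rest on that embryo. In the fit on all 18 arrays Fat4 and Ablim1 kept their call (limma adjusted p = 0.042 each) and the others did not.

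**Figure D2:**
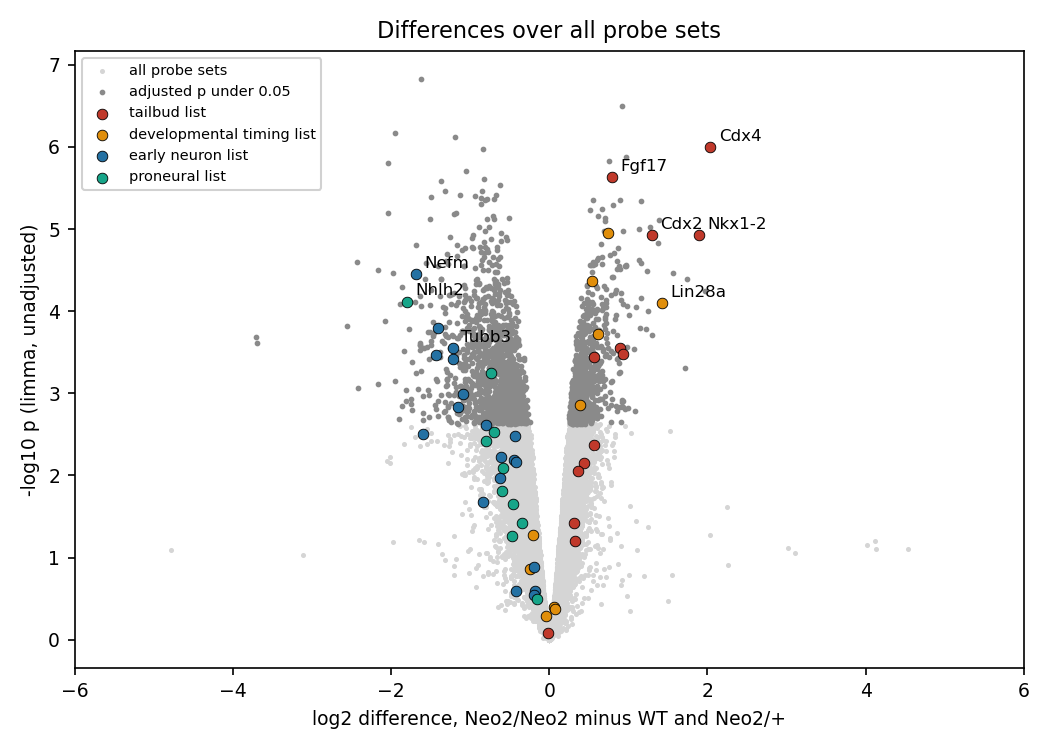
Log2 difference of Neo2/Neo2 minus the mean of Neo2/+ and WT (horizontal axis) against -log10 of limma's unadjusted p (vertical axis), for all probe sets, with list members at their gene's brightest probe set in colour. The tailbud gene Cdx4 lies at 2.04 on the right and the neurofilament gene Nefm at -1.69 on the left.

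Genes of the tailbud, the growth zone that supplies the trunk and tail, were the group with the largest share of called members among lists of over 3 genes. Of 13 measured tailbud genes, 7 rose in Neo2/Neo2 embryos (53.8%, against 2.6% of all genes) and 0 fell. The list median was 0.57 against 0.049 over all genes. With the Xist covariate 4 of the 13 were called, and with all 18 arrays 0. Differences were above 0 for 12 of the 13, and for 64.1% of all genes. Cdx4, a caudal homeobox factor that sets posterior identity, had log2 signals of 5.62 and 6.07 in Neo2/Neo2, against 4.10 and 3.78 in Neo2/+ and 3.84 and 3.50 in WT. Both Neo2/Neo2 embryos lay above all 4 others, as one group lay clear of the other for 29.2% of all genes, and Cdx4 was 4.11-fold higher (log2 difference 2.04 ± 0.21, SE, limma adjusted p = 0.0075). The adjusted p of Cdx4 was 0.018 with the Xist covariate and 0.085, not called, in the fit on all 18 arrays.

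Nkx1-2, a homeobox gene of neuromesodermal progenitors, had 6.69 and 6.96 in Neo2/Neo2, 5.45 and 5.11 in Neo2/+ and 4.60 and 4.54 in WT. Its 3 genotypes did not overlap, and it was 3.72-fold higher in Neo2/Neo2 (log2 difference 1.90 ± 0.25, SE, limma adjusted p = 0.0096). Cdx2, the related caudal factor, had 7.27 and 7.48 in Neo2/Neo2, 6.47 and 6.12 in Neo2/+ and 5.61 and 6.11 in WT, with a log2 difference of 1.30 ± 0.17 (SE, limma adjusted p = 0.0096). The other tailbud genes called were Sp5, a Wnt target, at a log2 difference of 0.93, Tbx6, which turns progenitors into presomitic mesoderm, at 0.89, Fgf17 at 0.79 and Cdx1 at 0.57. Sp5 had 7.04 and 7.11 in Neo2/Neo2, 6.38 and 6.37 in Neo2/+ and 5.53 and 6.29 in WT. Both Neo2/Neo2 embryos were the highest and WT replicate 1 was the lowest. Members that did not pass were Evx1 (0.57), Wnt3a (0.44), Fgf8 (0.37), Msgn1 (0.33), Cyp26a1 (0.31) and Dll1 (-0.02). These are whole embryos, so more cells of a type and more RNA per cell cannot be told apart for any gene here.

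Genes of the developmental timing group also rose, 5 of 10 measured (50%, against 2.6% of all genes). Lower calls numbered 0 and the list median was 0.23. With the Xist covariate or with all 18 arrays, 0 of the 10 were called. Lin28a, an RNA-binding protein that blocks maturation of let-7 microRNAs and marks early embryos, had log2 signals of 11.72 and 11.73 in Neo2/Neo2, 10.59 and 10.28 in Neo2/+ and 10.02 and 10.30 in WT. The Neo2/Neo2 embryos were above all others by more than 1 on the log2 scale, and Lin28a was 2.68-fold higher (log2 difference 1.43 ± 0.23, SE, limma adjusted p = 0.015). A dimmer probe set of Lin28a gave -0.59 with an adjusted p of 0.49, so the 2 probe sets of this gene disagree. Trim71, a let-7 target and ubiquitin ligase of early embryos, had 9.47 and 9.63 in Neo2/Neo2, 8.99 and 8.98 in Neo2/+ and 8.66 and 8.59 in WT (log2 difference 0.74). Arid3b (0.54), Sall4 (0.62) and the de novo DNA methyltransferase Dnmt3b (0.38) also passed. Hmga2 (-0.04), a let-7 target, Igf2bp3 (0.06), Lin28b (-0.24), Igf2bp1 (-0.21) and Utf1 (0.07) did not pass.

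The promoters of Sp5 and Lin28a are shown because both genes were called in the groups above and their windows hold matches to the TCF/LEF core through which canonical Wnt signalling acts. Letters in capitals are matches to CTTTGA or CTTTGT on either strand, from 250 bases before to 50 after the RefSeq start, read on the strand of the gene.
Sp5 (GRCm38.p6 chr2:70474673-70474972, plus strand): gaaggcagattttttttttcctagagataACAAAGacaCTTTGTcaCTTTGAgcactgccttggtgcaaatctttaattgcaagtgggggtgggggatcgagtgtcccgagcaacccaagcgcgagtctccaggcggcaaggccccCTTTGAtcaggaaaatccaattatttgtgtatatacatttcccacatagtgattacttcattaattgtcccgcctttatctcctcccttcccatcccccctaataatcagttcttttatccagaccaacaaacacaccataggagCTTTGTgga
Lin28a (GRCm38.p6 chr4:134018767-134019066, minus strand): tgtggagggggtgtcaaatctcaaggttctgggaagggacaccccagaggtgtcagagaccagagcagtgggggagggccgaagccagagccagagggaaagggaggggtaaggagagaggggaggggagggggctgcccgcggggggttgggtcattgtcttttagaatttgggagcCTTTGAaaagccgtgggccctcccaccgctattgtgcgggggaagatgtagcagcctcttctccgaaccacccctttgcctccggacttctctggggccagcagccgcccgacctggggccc
The Sp5 window holds 5 matches and the Lin28a window 1. Of 9 called tailbud and timing genes with a window, 2 hold a match (22.2%), against 31.2% of all 32851 windows, so the group's share was below that of all promoters.

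Of the Hox genes, 3 passed the test. The anterior and central list had 2 of 18 measured members higher (11.1%, against 2.6% of all genes), 0 lower and a median of -0.09, and the 2 were the 3′-end genes that open early in the tailbud and hindbrain. Hoxb1, which specifies rhombomere 4, had 8.22 and 8.38 in Neo2/Neo2, 7.41 and 7.32 in Neo2/+ and 6.77 and 7.06 in WT, and was 2.24-fold higher (log2 difference 1.16 ± 0.14, SE, limma adjusted p = 0.0075). Hoxd1 had 6.92 and 6.82 in Neo2/Neo2, 5.80 and 5.68 in Neo2/+ and 5.12 and 5.75 in WT, a log2 difference of 1.28. Among 14 measured posterior Hox genes 1 rose (7.14%), Hoxc10 at 0.61, which lost its call with the Xist covariate and with all 18 arrays. The somite list had 0 of 16 members called and a median of -0.06.

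Genes of differentiating neurons were lower in Neo2/Neo2 embryos. Of 19 measured early neuron genes, 7 fell (36.8%, against 1.24% of all genes) and 0 rose. The list median was -0.79, against 0.049 over all genes. Differences were above 0 for 0 of the 19, and for 64.1% of all genes. Nefm, the medium neurofilament subunit, had log2 signals of 8.29 and 8.39 in Neo2/Neo2, 9.78 and 10.09 in Neo2/+ and 10.08 and 10.16 in WT. The groups did not overlap, and Nefm was 3.22-fold lower in Neo2/Neo2 (log2 difference -1.69 ± 0.25, SE, limma adjusted p = 0.012). Tubb3, the neuronal beta tubulin, had 8.24 and 8.33 in Neo2/Neo2, 9.36 and 9.59 in Neo2/+ and 9.51 and 9.53 in WT, a log2 difference of -1.22.

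Stmn2, a tubulin-binding growth cone protein, had 7.64 and 7.70 in Neo2/Neo2, 8.92 and 9.19 in Neo2/+ and 9.09 and 9.09 in WT, with a log2 difference of -1.40. Nefl (-1.43), the RNA-binding protein gene Elavl3 (-1.21), the intermediate filament gene Ina (-1.16) and Stmn3 (-1.08) were the other called members. In each of them the 2 Neo2/Neo2 embryos were the lowest of the 6. Dcx, a microtubule protein of migrating neurons, had 6.20 and 6.29 in Neo2/Neo2, 7.66 and 7.86 in Neo2/+ and 8.06 and 7.82 in WT, and its log2 difference of -1.60 did not pass, at a limma adjusted p of 0.058. Without Neo2/Neo2 replicate 2 the called neuron genes lost their call, as did the other called genes followed across the fits. All kept their direction, in arrays that had also given the calls. With the Xist covariate or with all 18 arrays, 0 of the 19 neuron genes were called.

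Proneural factors, which start neuron formation, lay in the same direction. Of 10 measured, 2 fell (20%, against 1.24% of all genes) and 0 rose, with a median of -0.59 and 0 differences above 0. With the Xist covariate or with all 18 arrays, 0 of the 10 were called. Nhlh2, a helix-loop-helix factor of newborn neurons, had 6.57 and 6.55 in Neo2/Neo2, 8.21 and 8.42 in Neo2/+ and 8.31 and 8.49 in WT, and was 3.48-fold lower (log2 difference -1.80 ± 0.29, SE, limma adjusted p = 0.015). Atoh1, needed for hindbrain and inner ear lineages, differed by -0.74. Neurog3 (-0.80), Nhlh1 (-0.70), Neurod1 (-0.60), Neurod4 (-0.59), Neurog2 (-0.46) and Neurog1 (-0.34) did not pass. Neural progenitor genes had 2 of 13 measured members lower (15.4%), Fabp7 (-0.78) and the Notch target Hes5 (-0.58), and a median of -0.07. Both lost their call with the Xist covariate and with all 18 arrays.

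**Figure D3:**
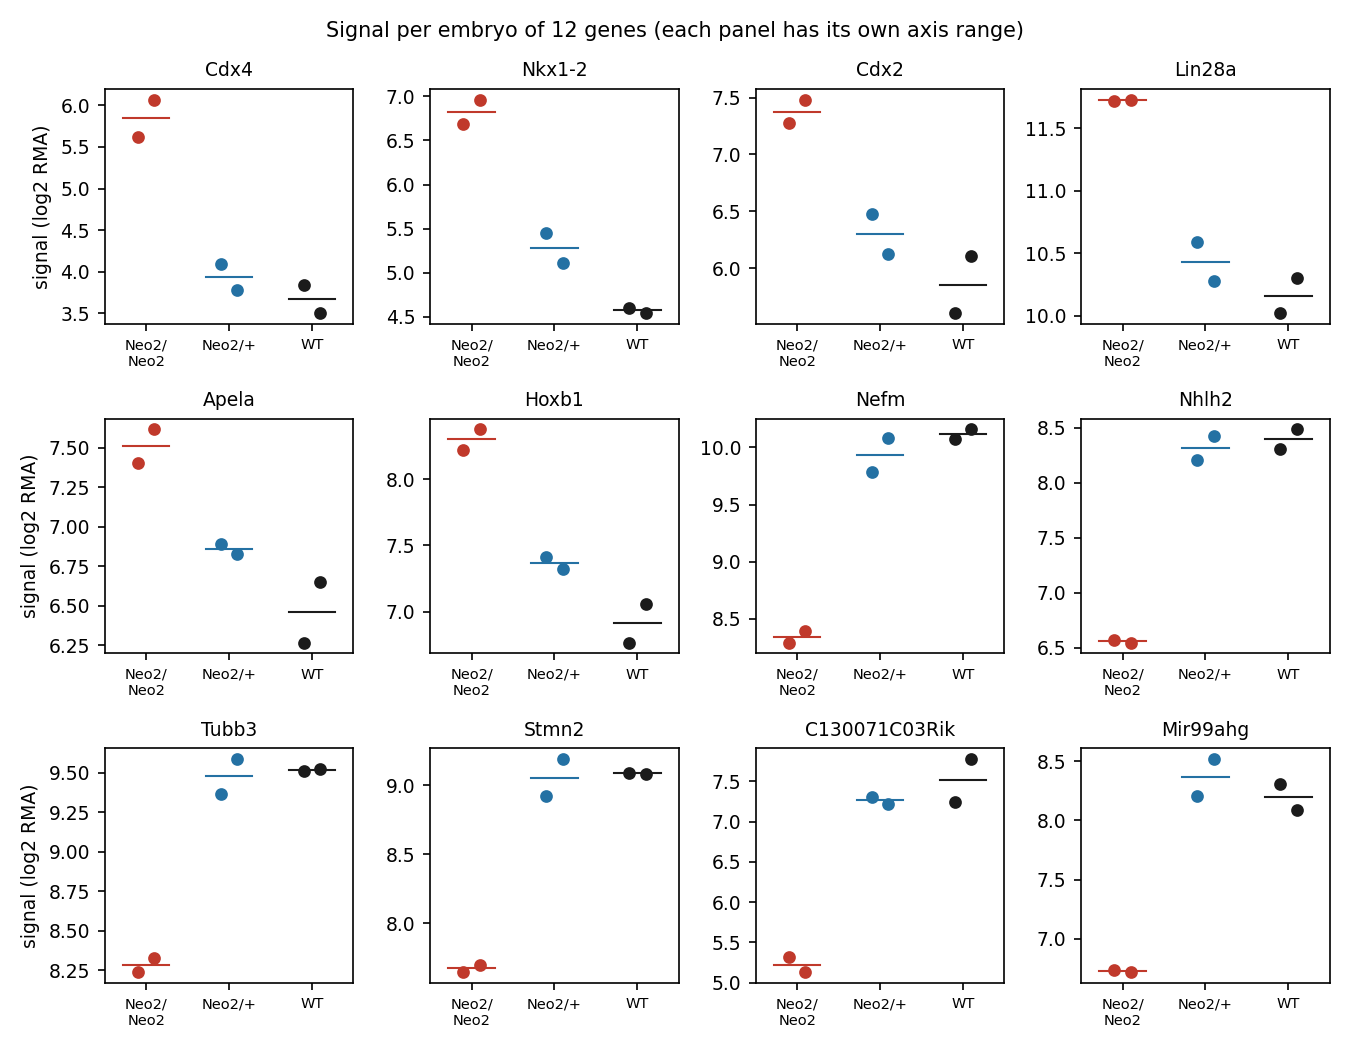
Signal (log2 RMA, vertical axes with their own ranges) of 12 genes in the 2 Neo2/Neo2, 2 Neo2/+ and 2 WT embryos. Points are embryos and bars are genotype means. In the panels of Cdx4, Nkx1-2, Cdx2, Lin28a, Apela and Hoxb1 the Neo2/Neo2 embryos are the highest, and in the other 6 panels they are the lowest.

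Promoters of Nhlh2 and Elavl3 are shown because they are called genes of these lists with matches to the E-box, the element that proneural factors bind. Capitals mark CAGCTG or CAGATG on either strand.
Nhlh2 (GRCm38.p6 chr3:102009895-102010194, plus strand): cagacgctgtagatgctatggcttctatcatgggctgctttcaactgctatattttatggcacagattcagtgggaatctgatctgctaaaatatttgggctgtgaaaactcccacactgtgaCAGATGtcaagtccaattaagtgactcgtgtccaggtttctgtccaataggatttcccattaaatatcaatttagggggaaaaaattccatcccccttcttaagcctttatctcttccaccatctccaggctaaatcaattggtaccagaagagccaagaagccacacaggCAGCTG
Elavl3 (GRCm38.p6 chr9:22051974-22052273, minus strand): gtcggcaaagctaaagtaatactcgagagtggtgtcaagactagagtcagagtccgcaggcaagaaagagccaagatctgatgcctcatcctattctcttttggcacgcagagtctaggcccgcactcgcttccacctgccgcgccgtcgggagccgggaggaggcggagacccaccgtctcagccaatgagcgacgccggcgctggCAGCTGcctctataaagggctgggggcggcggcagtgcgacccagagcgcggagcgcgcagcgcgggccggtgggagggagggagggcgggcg
Matches number 2 in Nhlh2 and 1 in Elavl3. Of 6 called neuron and proneural genes with a window, 4 hold an E-box (66.7%), against 30.6% of all windows, a description of few genes.

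Several long noncoding RNAs were among the largest differences. C130071C03Rik had log2 signals of 5.32 and 5.13 in Neo2/Neo2, 7.30 and 7.22 in Neo2/+ and 7.25 and 7.78 in WT, 4.48-fold lower in Neo2/Neo2 (log2 difference -2.16 ± 0.32, SE, limma adjusted p = 0.012). It is the host of Mir9-2 on chromosome 13, and miR-9 is known as a microRNA of neural differentiation. Mir99ahg on chromosome 16 had 6.74 and 6.72 in Neo2/Neo2, 8.20 and 8.52 in Neo2/+ and 8.31 and 8.09 in WT (log2 difference -1.55, limma adjusted p = 0.011). The loci of miR-99a, let-7c and miR-125b lie 40.5, 41.2 and 87.9 kb past its annotated end. Mature microRNAs are not measured by these arrays. The mature sequences are shown because their loci neighbour the 2 called transcripts, with the seed, bases 2 to 8, in capitals, from RefSeq.
miR-9-5p (GRCm38.p6 chr13:83738821-83738843, plus strand): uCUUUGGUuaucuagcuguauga
miR-99a-5p (GRCm38.p6 chr16:77598940-77598961, plus strand): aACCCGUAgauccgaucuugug
let-7c-5p (GRCm38.p6 chr16:77599672-77599693, plus strand): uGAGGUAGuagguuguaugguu
miR-125b-5p (GRCm38.p6 chr16:77646279-77646300, plus strand): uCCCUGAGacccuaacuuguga
The 4 seeds differ from one another. Among other noncoding transcripts, Miat had 8.26 and 8.11 in Neo2/Neo2, 9.42 and 9.67 in Neo2/+ and 9.88 and 9.61 in WT (log2 difference -1.46).

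Further large differences were the axon guidance receptor Dcc, at a log2 difference of -1.40, the LIM homeobox gene Lhx8 at -1.57, the synaptic SNARE gene Snap25 at -1.52 with an adjusted p of 0.046, and the zinc finger gene St18 at -1.47. Among higher genes, 2610528A11Rik was 3.91-fold higher (log2 difference 1.97). Car4, a membrane carbonic anhydrase, had 8.37 and 8.70 in Neo2/Neo2, 6.87 and 6.82 in Neo2/+ and 6.61 and 6.99 in WT, and a second probe set gave 1.74 against 1.72. The lactate transporter gene Slc16a3 (1.22), the tight junction gene Cldn9 (1.16) and the eye field gene Six6 (1.13) also rose. D930028M14Rik fell by 1.5.

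Heart genes gave 6 higher calls and 1 lower call over both lists, and 0 with the Xist covariate or with all 18 arrays. Of 17 cardiomyocyte genes, 2 rose and 1 fell (17.6%, against 3.84% of all genes), and the median was 0.41. Of 12 second heart field genes, 4 rose and 0 fell (33.3%), and the median was 0.41. Myh6, the alpha myosin heavy chain, had log2 signals of 10.40 and 10.25 in Neo2/Neo2, 9.83 and 9.88 in Neo2/+ and 9.87 and 9.56 in WT (log2 difference 0.54), and the calcium channel gene Ryr2 differed by 0.53. Pln, which restrains the calcium pump, differed by -0.52. In the second heart field list Wnt11 (0.52), Gata4 (0.71), Gata6 (0.51) and Smyd1 (1.00) passed. Smyd1 had 6.62 and 7.61 in Neo2/Neo2, 6.35 and 5.95 in Neo2/+ and 6.33 and 5.84 in WT, so 1 embryo carries most of its difference, and 4 of its 5 other probe sets did not pass. Genes that did not pass included Nkx2-5 (0.57), Isl1 (-0.44), Tbx20 (0.46), Hand2 (0.16) and Mef2c (0.03).

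All 16 measured hypoxia and glycolysis genes had a difference above 0, as had 64.1% of all genes, and their median was 0.38. Of them 5 were called higher (31.2%, against 2.6% of all genes) and 0 lower. Calls in this list were 0 with the Xist covariate and 0 with all 18 arrays. The glycolysis enzyme gene Pfkl had 11.25 and 11.48 in Neo2/Neo2, 10.82 and 10.73 in Neo2/+ and 10.60 and 10.90 in WT (log2 difference 0.60). Bnip3 (0.55), the glucose transporter gene Slc2a1 (0.48), Ndrg1 (0.46) and Ldha (0.35) also passed, and Vegfa (0.04) and Car9 (0.05) did not. Of the p53 targets 1 of 13 rose (7.69%), Eda2r at 0.64, and of the immediate early genes 1 of 14 (7.14%), Atf3 at 0.58. With 2.6% of all genes called higher, 1 call in a list of this size does not describe the group. Of the heat shock and unfolded protein genes 0 of 15 were called.

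**Figure D4:**
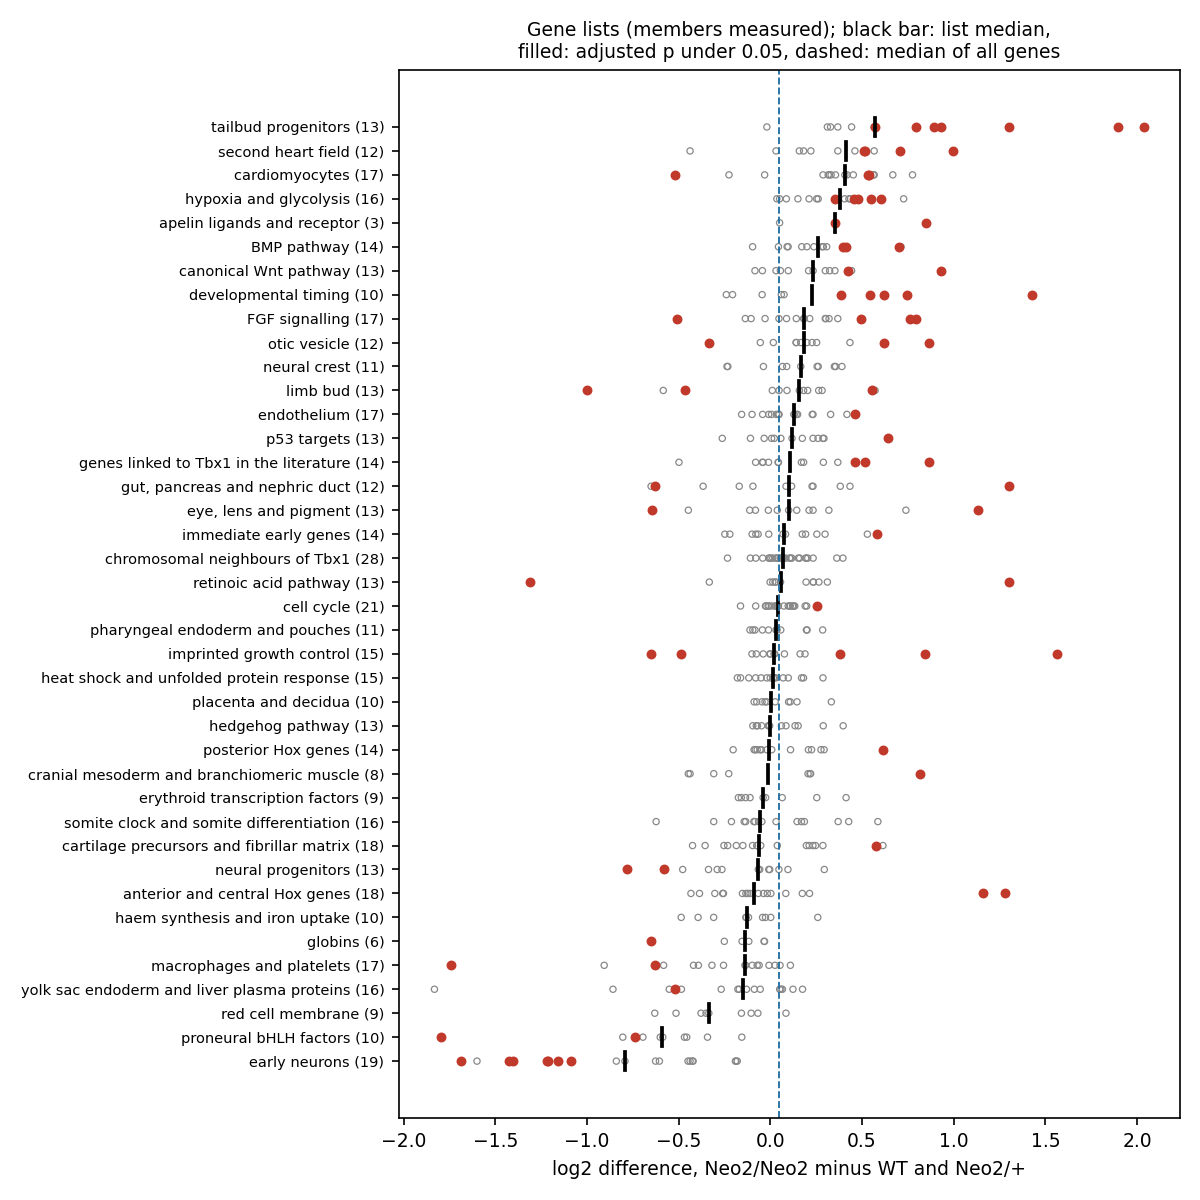
Log2 difference of Neo2/Neo2 minus Neo2/+ and WT (horizontal axis) for members of 40 gene lists (rows; members measured in parentheses), 1 probe set per gene. Filled points have an adjusted p under 0.05, black bars are list medians and the dashed line is the median of all genes, 0.049.

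Signalling genes were split. Among 17 FGF pathway genes 3 rose and 1 fell (23.5%, against 3.84% of all genes). Calls in this list were 2 with the Xist covariate and 0 with all 18 arrays. The ligand genes Fgf17 (0.79) and Fgf18 (0.76) and the target Etv5 (0.49) were higher, and the receptor gene Fgfr3 (-0.51) was lower. Fgf18 had 6.68 and 6.87 in Neo2/Neo2, 6.05 and 6.24 in Neo2/+ and 5.84 and 5.92 in WT. Fgf8, a ligand that Tbx1 is known to act upstream of, differed by 0.37 and did not pass. In the BMP list 3 of 14 rose (21.4%, against 2.6% of all genes), Nog (0.70), an antagonist, Bmp5 (0.41) and Msx2 (0.40). The Wnt list had 2 of 13 higher (15.4%), Sp5 and Wnt5a (0.42). The BMP and Wnt lists had 0 calls with the Xist covariate or with all 18 arrays. The hedgehog list had 0 of 13 called and a median of -0.0043.

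Enzymes of retinoic acid synthesis went opposite ways. Aldh1a3 had 7.36 and 7.75 in Neo2/Neo2, 6.49 and 6.07 in Neo2/+ and 6.20 and 6.25 in WT, a log2 difference of 1.30. Aldh1a1 had 4.60 and 4.63 in Neo2/Neo2, 5.81 and 6.23 in Neo2/+ and 5.56 and 6.12 in WT, a log2 difference of -1.31. Aldh1a2, the main enzyme of the trunk, differed by 0.03. Apela, a peptide ligand of the apelin receptor, had 7.41 and 7.62 in Neo2/Neo2, 6.89 and 6.83 in Neo2/+ and 6.27 and 6.65 in WT (log2 difference 0.85); its limma adjusted p was 0.011, 0.044 in the fit on all 18 arrays and 0.053, not called, with the Xist covariate. A second probe set of Apela gave 0.10. Apln differed by 0.35 and the receptor gene Aplnr by 0.05.

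Imprinted genes had 3 members higher and 2 lower of 15 measured (33.3%, against 3.84% of all genes), and 0 called with the Xist covariate or with all 18 arrays. Phlda2, an imprinted growth restrictor best known in placenta, had 7.78 and 7.84 in Neo2/Neo2, 6.28 and 6.60 in Neo2/+ and 5.89 and 6.22 in WT, 2.95-fold higher. Peg10 (0.84) and Igf2r (0.38) rose, and Meg3 (-0.65) and the cell cycle inhibitor gene Cdkn1c (-0.49) fell. Of 10 other probe sets of Meg3, all lay below 0. The placenta and decidua list had 0 of 10 members called, a median of 0.003 and mean levels near the bottom of the signal range, 3.32 and 3.28 in Neo2/Neo2, 3.25 and 3.15 in Neo2/+ and 3.39 and 3.23 in WT.

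Blood and yolk sac lists had 0 members called higher. Of 9 red cell membrane genes 0 were called and the median was -0.34; the list's mean levels were 7.48 and 7.09 in Neo2/Neo2, 7.27 and 7.19 in Neo2/+ and 8.03 and 7.74 in WT, so WT stood apart from both other genotypes. Among 6 globin probe sets 1 fell (16.7%, against 1.24% of all genes), the alpha globin gene Hba-a2 at -0.65 (limma adjusted p = 0.020). Near-identical copies make its signal uncertain, and it lost its call with the Xist covariate and with all 18 arrays. Haem synthesis genes, with 0 of 10 called, had mean levels of 9.35 and 9.22 in Neo2/Neo2, 9.21 and 9.17 in Neo2/+ and 9.72 and 9.59 in WT, so Neo2/Neo2 lay above Neo2/+ and below WT. Afp, a yolk sac and liver plasma protein, had 7.37 and 8.60 in Neo2/Neo2, 9.48 and 9.66 in Neo2/+ and 9.78 and 10.36 in WT, and its log2 difference of -1.83 did not pass (limma adjusted p = 0.065). Macrophage and platelet genes had 2 of 17 lower (11.8%), the platelet chemokine gene Ppbp (-1.74) and Cx3cr1 (-0.63). Calls in this list were 1 with the Xist covariate and 0 with all 18 arrays. Cx3cr1 was dim, at means of 3.73 in Neo2/Neo2 and 4.36 in the others, and its second probe set gave 0.06 (limma adjusted p = 0.84). Ppbp had 4.13 and 4.41 in Neo2/Neo2, 4.99 and 6.55 in Neo2/+ and 6.46 and 6.05 in WT.

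Lists of the other tissues in which Tbx1 is known to act, or next to which it acts, differed in their share of called genes, against 3.84% of all genes. Otic genes had 2 higher and 1 lower of 12 (25%) and cranial mesoderm genes 1 higher of 8 (12.5%), while pharyngeal endoderm and pouch genes had 0 of 11 called and neural crest genes 0 of 11. Gbx2, an otic and hindbrain homeobox gene, had 6.69 and 7.13 in Neo2/Neo2, 6.10 and 6.02 in Neo2/+ and 5.93 and 6.13 in WT (log2 difference 0.86). Oc90, an otoconia protein, had 4.58 and 4.62 in Neo2/Neo2, 4.66 and 4.54 in Neo2/+ and 5.32 and 5.21 in WT, so its difference of -0.33 lay against WT and not against Neo2/+. Of 14 measured genes linked to Tbx1 in the literature, 3 rose (21.4%), Gbx2, Wnt11 and Flt4 at 0.46. This list and the otic and cranial mesoderm lists had 0 calls with the Xist covariate or with all 18 arrays.

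The remaining lists had between 0% and 23.1% of their genes called, against 3.84% of all genes. The limb bud list had 1 of 13 measured genes higher, Grem1 (0.56), and 2 lower, Shox2 (-1.0) and Prrx1 (-0.47), which is 23.1%, and the cartilage and matrix list 1 of 18 higher (5.56%), Hapln1 (0.57). Eye, lens and pigment genes had Six6 higher and the melanin enzyme gene Dct (-0.65) lower of 13 (15.4%). Endothelial genes had 1 of 17 higher (5.88%), the vascular receptor gene Flt4, and gut and kidney genes had Cdx2 higher and Onecut1 (-0.63) lower of 12 (16.7%). The erythroid transcription factor list had 0 of 9 called. Of 16 yolk sac genes 1 fell, Apob (-0.52), and of 21 cell cycle genes 1 rose, Mcm4 (0.25). A second probe set of Apob gave -0.01 (limma adjusted p = 0.97). In these remaining lists 0 genes were called with all 18 arrays, and with the Xist covariate only 1 gut and kidney gene.

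None of 28 measured chromosomal neighbours of Tbx1 was called, and their median was 0.07. The nearest to the threshold was Gnb1l, at a log2 difference of 0.40 and an adjusted p of 0.060. Within 5 Mb of Tbx1, 8 of 133 genes were called, 6.02% against 3.84% of all genes, namely Mcm4, Etv5, Masp1, Mpv17l, Pkp2 and Abcc1, which rose, and Marf1 and Fgd4, which fell. By autosome the called share was 2.97% to 5.41%, highest on chromosome 16. On chromosome X, 28 of 617 genes were called (4.54%), 26 of them higher in Neo2/Neo2, and both Neo2/Neo2 embryos are male and 3 of the 4 others female.

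Taken against each genotype alone, Neo2/Neo2 minus WT gave 911 called probe sets (2.02%), 477 higher and 434 lower, and Neo2/Neo2 minus Neo2/+ gave 1005 (2.23%), 252 higher and 753 lower. Both share the Neo2/Neo2 arrays. By smallest p, Cdx4, Fgf18 and Hoxb1 led the higher genes and Fat4, Hemgn and Oc90 the lower ones against WT, and Arhgap24, Cdx4 and Podxl led the higher ones and Gpc2, Malat1 and Stx1a the lower ones against Neo2/+. The difference between Neo2/+ and WT had 0 called probe sets, with 5105 of 45037 at an unadjusted limma p under 0.05. With 2 embryos each, 0 calls do not show these 2 pooled genotypes to be alike.

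Embryos of the other genotypes also varied along these lists, which is shown as a description with no test. A list level is the average, over its genes, of the log2 deviation from that gene's 18-array mean. The tailbud list stood at 0.593 and 0.659 in Neo2/Neo2, 0.021 and -0.147 in Neo2/+ and -0.363 and -0.213 in WT. The -/- replicate 2, which has a low Tbx1 signal of 5.16, stood at 0.654, and the 2 Neo2/Neo embryos at -0.387 and -0.325. The early neuron list ran the other way, at -0.733 and -0.679 in Neo2/Neo2, 0.026 and 0.189 in Neo2/+ and 0.188 and 0.130 in WT, with -0.713 in -/- replicate 2, -0.559 in Neo/+ replicate 2 and 0.807 and 0.882 in Neo2/Neo. The array most like Neo2/Neo2 replicate 1 over all probe sets was +/- replicate 2, and the array most like -/- replicate 2 was Neo2/Neo2 replicate 1. The 2 embryos of a genotype could differ, as -/- replicate 1 stood at -0.307 in the tailbud list and 0.173 in the neuron list. As no somite number was given, embryo stage and genotype cannot be told apart in this comparison.

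**Figure D5:**
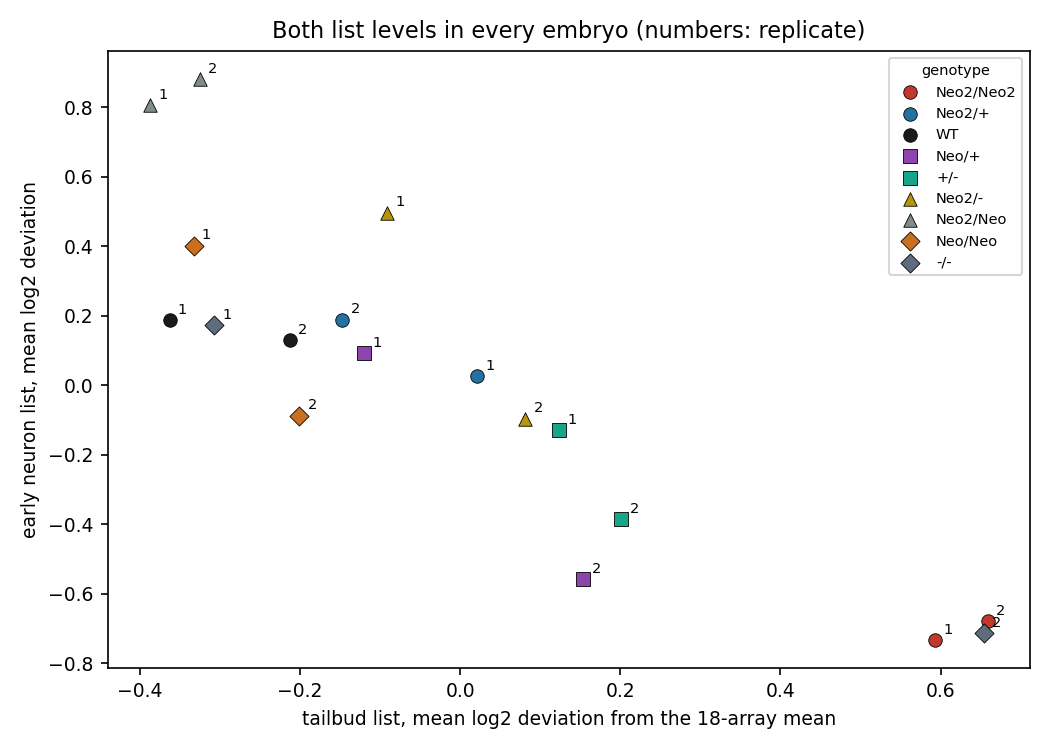
Mean log2 deviation of the tailbud list (horizontal axis) against that of the early neuron list (vertical axis) in each of the 18 embryos, with the replicate number beside each point. Both Neo2/Neo2 embryos and -/- replicate 2 lie at the lower right, and both Neo2/Neo embryos at the upper left.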

How the data were processed

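RNA of 18 whole embryos was measured on Affymetrix mouse whole-genome arrays, and 6 arrays enter the comparison. The authors deposited log2 signals; the submitters' processing notes name affy and RMA, and no source used here gives their versions. They were used unscaled, over 45037 probe sets, of which 34945 have 1 gene symbol, standing for 18193 genes; each gene was taken at its brightest such set. limma 3.58.1 in R 4.3.3 fitted 7 genotype means on 14 arrays (7 residual and 4.04 prior degrees of freedom), all tests two-sided and adjusted by Benjamini-Hochberg over all probe sets. +/- and -/- were left out because 1 array of each stands apart, so the spread does not hold how their embryos differ. The labels call the 2 embryos of a genotype biological replicates. The procedure was tested on simulated data. The compared genotypes, members and 41 gene lists were chosen with earlier results of these data known. Of 556 list genes 510 were measured; the others are not analysed here. Genes named are the 12 largest called per direction, up to 6 called members per list (or the 2 with smallest p), 3 per direction in the other contrasts, and Tbx1, sex markers and neighbours; other members given by value were chosen after their values were seen.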

Additional observations from a re-analysis of the deposited data

Results flagged for a closer look

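Among the 4 Neo2/+ and WT embryos, 115 named genes were examined for an embryo far from the other 3, and 5 had one by Dixon's test; chance alone gives about 1 in 20. C130071C03Rik was high in WT replicate 2, at 7.78 against 7.22 to 7.3 in the other 3. Gata6 was also high in WT replicate 2, at 8.18 against 8.01 to 8.04, and Myh6 was low there, at 9.56 against 9.83 to 9.88. Sp5 was low in WT replicate 1, at 5.53 against 6.29 to 6.38, and Gnb1l was low there, at 6.57 against 6.76 to 6.8. For all 5 genes both Neo2/Neo2 embryos lay outside the range of all 4 embryos, with or without the one that stands apart. This adds no support, as most named genes were chosen by the same comparison. The groups did not overlap for 692 of its 699 called genes, and for 29.2% of all genes.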

How the results depend on the processing

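For Neo2/Neo2 minus Neo2/+ and WT, the 2119 called probe sets became 16 with all 18 arrays, 44 with Xist as a covariate, 3192 with an intensity trend, 3332 with arrays centred and 1241 with array weights. Leaving out 1 embryo gave 6 to 2072. It was 2848 of 21265 probe sets with a mean signal of at least 6, and 1561 or 1417 with the 6 arrays alone. Against WT, 911 became 1 (18 arrays), 4 (Xist), 2098 (trend), 2089 (signal of at least 6), 1552 (centred) and 1 (array weights), and 2 to 1352 without 1 embryo. Against Neo2/+, 1005 became 2 (18 arrays), 117 (Xist) and 1742 (trend), and 0 to 851 without 1 embryo: 6 without Neo2/+ replicate 1, 0 without Neo2/+ replicate 2 and 3 without Neo2/Neo2 replicate 2. For Neo2/+ minus WT, 0 became 1 with the trend and 0 to 227 without 1 embryo, 227 being without WT replicate 2. The causes were not tested. Signs could not change with all 18 arrays, as the genotype means are the same. Of 90 called named genes, 2 kept their call with 18 arrays, 14 with Xist, 88 with arrays centred and 0 without Neo2/Neo2 replicate 2; no sign of a called gene reversed. The medians of 40 lists moved beyond the spread for 12 with arrays centred, 4 with Xist and 3 to 11 without 1 embryo. With a replicate block, the counts were 1936, 925, 726 and 0; deviations of same-numbered embryos correlated at -0.001 to 0.083, and the labels do not pair the numbers. Where 1 embryo of a genotype is left, it is assumed to vary like the others. With 2 embryos per genotype, small differences were often not detectable, and stage, litter and batch were not recorded here.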

Other observations

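Some large differences belong to no list above and were chosen after their values were seen. Among genes higher in Neo2/Neo2 than in Neo2/+ and WT were Nr6a1, an orphan receptor gene of the early embryo, at a log2 difference of 1.15 ± 0.21 (SE, limma adjusted p = 0.019), Prtg, a receptor of the early neural plate and mesoderm, at 1.00, the glucose transporter gene Slc2a3 at 0.96, the epithelial keratin gene Krt8 at 0.91, Greb1l at 0.84 and Ifitm1 at 1.16. Genes lower in Neo2/Neo2 were the Eph receptor gene Epha3 at -1.29 ± 0.18 (SE, limma adjusted p = 0.011), Id4 at -1.25, the creatine kinase gene Ckb at -1.07 and the neuropeptide gene Sst at -1.03. In all of them both Neo2/Neo2 embryos lay on one side of the 4 others, as in 692 of the 699 called genes and 29.2% of all genes.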
